A study of Homo sapiens with 6 samples.

Results

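SR splicing factors and heterogeneous nuclear ribonucleoproteins (hnRNPs) were described by mRNA sequencing of CAL27 cells, a human tongue squamous carcinoma line long in culture, grown with metformin or its vehicle. The members were the protein-coding genes of GENCODE release 29 named SRSF with a number, the SR-like genes TRA2A and TRA2B, and all genes whose symbol begins with HNRNP. This rule found 41 genes among 58243 listed, 14 of the SR family and 27 hnRNPs, and did not use their levels. Cells received 30 mM metformin, a biguanide that lowers blood glucose, for 48 h in 3 libraries, or phosphate-buffered saline (PBS) for 48 h in the other 3 libraries. All cells were grown in medium with serum, and no other dose, time or cell line was measured. No label ties the libraries to separate cultures, so a p-value here rests on differences among these libraries, and those could be technical.

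SR proteins join RNA-recognition domains to a tail rich in arginine and serine, bind enhancer sequences in exons and recruit the spliceosome to nearby splice sites. The hnRNPs are abundant RNA-binding proteins that coat new transcripts, and several of them silence the sites that SR proteins activate, so the balance of both families helps to set which exons enter a messenger RNA. SR proteins also act in mRNA export and translation, and hnRNPs in mRNA stability. Many genes of both families limit their own output by splicing in a poison exon or retaining an intron, which sends the transcript to nonsense-mediated decay.

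Most tested members of both families had lower transcript levels with metformin. HNRNPA1 fell 3.72-fold, and HNRNPD, SRSF2, HNRNPM, SRSF7, SRSF3 and HNRNPDL fell between 2.01-fold and 2.63-fold. SRSF4, SRSF5, SRSF9, HNRNPA0, HNRNPA1L2, HNRNPF and HNRNPLL did not pass the test, and HNRNPH3, SRSF11 and SRSF8 rose by at most 1.25-fold. The SR total and the hnRNP total fell by nearly the same share, 32.4% and 34.7%, while the make-up of each family changed.

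Levels are in FPKM, fragments scaled to transcript length and to all mapped fragments, and are given as mean ± SD of 3 libraries. Folds are ratios of these means. A log2 change is the metformin mean minus the PBS mean of log2(FPKM + 1), which understates changes of genes with low values. Genes averaging 1 FPKM or more across all 6 libraries, 13437 in number, were tested with limma, and p-values were adjusted by Benjamini-Hochberg over all of them, with a call at an adjusted p below 0.05. From the spacing of low values, the libraries were estimated to hold 7810000 to 8820000 fragments, with no group deeper throughout. Of the squamous epithelial markers, 9 of 9 were above the level filter, with 2 called higher and 6 lower, and their summed level was 816 to 838 FPKM with metformin and 1409 to 1487 with PBS. The keratin genes KRT14, at 12.9 ± 0.275 FPKM with metformin and 246 ± 17.4 with PBS, and KRT5, at 52.4 ± 4.19 and 355 ± 6.04, held most of this difference, and their part in the results was not tested. The sums of the other marker lists were 2.49 to 2.74 FPKM with metformin and 1.54 to 2.34 with PBS for 6 fibroblast genes, 1.31 to 1.89 and 3.09 to 4.77 for 5 leukocyte genes, and 2.01 to 2.32 and 5.93 to 6.87 for 4 endothelial genes. Most of these sums came from COL1A1 (2.38 FPKM with metformin and 1.36 with PBS), CD14 (0.942 and 3.71) and CDH5 (2.03 and 6.17). The sums therefore do not measure the amount of a cell type. DCN, CD79A and KDR were listed at 0 in every library, and the part of the genes on these lists in the results was not tested. MALAT1, a nuclear long noncoding RNA, was at 91.7 ± 0.980 FPKM with metformin and 26.2 ± 2.30 with PBS, whereas NEAT1, another one, was at 52.2 ± 4.34 and 53.9 ± 2.57. The part of such a shift in nuclear RNA in the results was not tested. In bulk RNA, fewer cells of a type and less RNA per cell cannot be told apart.

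Of the 41 members, 35 reached the filter of 1 FPKM, 13 of the SR family and 22 hnRNPs. SRSF12, HNRNPCL1, HNRNPCL2, HNRNPCL3 and HNRNPCL4 were listed at 0 in every library. The readthrough gene HNRNPUL2-BSCL2 stayed under the filter, at 0.747 ± 0.477 FPKM with metformin and 1.03 ± 0.347 with PBS, and 98.1% of its 75-base words also occur in transcripts of its constituent genes. HNRNPA1P48 and HNRNPA1L2 are copies of HNRNPA1 that GENCODE 29 annotates as protein-coding, and passed the filter only through their PBS levels. Their means were 0.709 and 0.508 FPKM with metformin and 2.998 and 1.78 with PBS, so the filter itself favours a fall. Of their 75-base words, 40.97% and 35.05% also occur in HNRNPA1, so their values may not be independent of that gene. The members that passed made up 25 falls, 3 rises and 7 without a call. Over all tested genes 56.2% were called, 25.2% lower and 31% higher. Falls of at least 0.5 on the log2 scale were called for 6 SR and 13 hnRNP genes, and rises of that size for 0, while of all tested genes 33.9% passed this rule, 15% lower and 18.9% higher. Falls of at least 1 were called for SRSF2, SRSF3, SRSF7, HNRNPA1, HNRNPD, HNRNPM and HNRNPA1P48, against 11.3% of all tested genes, 4.74% lower and 6.51% higher. The metformin and PBS libraries did not overlap in 8 lower and 2 higher SR genes and in 17 lower and 1 higher hnRNP genes, against 64.4% of all tested genes, 28.7% lower and 35.7% higher.

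The promoters of 5 members are shown because they belong to members with large falls and to HNRNPH3, the largest of the 3 rises, among genes with a sequence in RefSeq's promoter table (GRCh38.p14), which held 36 of the 41 members. It held none for HNRNPA1, HNRNPA1P48, HNRNPCL3, SRSF2 and TRA2A. Each printed promoter is 300 bases, 250 before to 50 after the annotated start, 5′ to 3′ on the gene's own strand. Capitals, of which SRSF7 has none, mark the E-box CACGTG, a motif bound by factors such as MYC, and the CCAAT box, written CCAAT or, on the other strand, ATTGG. They lie at chr4:82373942-82374241 (minus strand) for HNRNPD, chr19:8444725-8445024 (plus) for HNRNPM, chr10:68331443-68331742 (plus) for HNRNPH3, chr6:36594112-36594411 (plus) for SRSF3 and chr2:38751445-38751744 (minus) for SRSF7.
HNRNPD promoter: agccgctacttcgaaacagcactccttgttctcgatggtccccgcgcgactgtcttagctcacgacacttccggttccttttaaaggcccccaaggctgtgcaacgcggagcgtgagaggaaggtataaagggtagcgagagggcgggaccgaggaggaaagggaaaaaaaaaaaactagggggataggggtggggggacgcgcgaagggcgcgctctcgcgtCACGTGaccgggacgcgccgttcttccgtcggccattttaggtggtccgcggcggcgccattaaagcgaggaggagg
HNRNPM promoter: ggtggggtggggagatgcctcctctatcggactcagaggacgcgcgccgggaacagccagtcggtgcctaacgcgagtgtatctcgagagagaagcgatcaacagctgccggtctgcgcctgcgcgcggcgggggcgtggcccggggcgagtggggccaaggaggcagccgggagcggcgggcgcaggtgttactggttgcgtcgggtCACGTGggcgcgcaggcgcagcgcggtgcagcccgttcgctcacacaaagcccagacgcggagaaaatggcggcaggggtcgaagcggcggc
HNRNPH3 promoter: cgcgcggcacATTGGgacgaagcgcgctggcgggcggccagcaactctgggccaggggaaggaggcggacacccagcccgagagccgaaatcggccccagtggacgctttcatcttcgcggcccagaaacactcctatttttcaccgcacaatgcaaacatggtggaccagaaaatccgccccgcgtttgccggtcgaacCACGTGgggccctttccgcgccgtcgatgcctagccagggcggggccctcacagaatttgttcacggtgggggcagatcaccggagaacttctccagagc
SRSF3 promoter: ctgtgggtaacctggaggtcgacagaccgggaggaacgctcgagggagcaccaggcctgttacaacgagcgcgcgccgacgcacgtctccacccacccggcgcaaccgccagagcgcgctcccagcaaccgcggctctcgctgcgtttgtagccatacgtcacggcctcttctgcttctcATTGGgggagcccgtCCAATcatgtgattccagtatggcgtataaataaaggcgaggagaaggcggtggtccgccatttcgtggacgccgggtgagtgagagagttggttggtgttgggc
SRSF7 promoter: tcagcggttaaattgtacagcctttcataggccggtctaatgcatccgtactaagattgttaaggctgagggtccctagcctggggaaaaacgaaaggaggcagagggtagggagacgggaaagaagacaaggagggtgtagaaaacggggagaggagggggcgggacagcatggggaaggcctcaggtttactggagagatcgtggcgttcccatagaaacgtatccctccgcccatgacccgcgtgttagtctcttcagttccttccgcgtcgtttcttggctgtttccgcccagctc

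CCAAT, searched on both strands, was in at least 1 window of 20 of 24 hnRNP genes (83.3%) and of 2 of 12 SR genes (16.7%), SRSF3 and SRSF8, against 39.7% of all 27305 genes with a window. The 20 include HNRNPUL2 and HNRNPUL2-BSCL2, whose windows overlap and share the motif, and HNRNPCL1 and HNRNPCL2, which were at 0 FPKM in every library. Some genes have several windows, and counted by window the shares were 22 of 35 (62.9%) for hnRNPs, 3 of 15 for SR genes and 34.6% of all. CACGTG was found for 7 hnRNP genes (29.2%) and 0 SR genes, against 8.8% of all genes. Of these 7, HNRNPA3, HNRNPD, HNRNPDL, HNRNPH2, HNRNPM and HNRNPUL1 were called lower and HNRNPH3 was called higher. Of the 22 tested hnRNP genes, with or without the motif, 77.3% were called lower and 4.55% higher. The shares of all tested genes were 25.2% and 31%, and a link between the motif and the changes was not tested. For HNRNPH3 the E-box and the CCAAT box are in 1 of 3 windows, the one printed. SRSF7 has a further window, not printed, which also holds neither motif. The cyclic AMP response motif TGACGTCA was in no window of either family and in 2.2% of all genes. No motif contains another, and a match describes the sequence only.

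**Figure D1:**
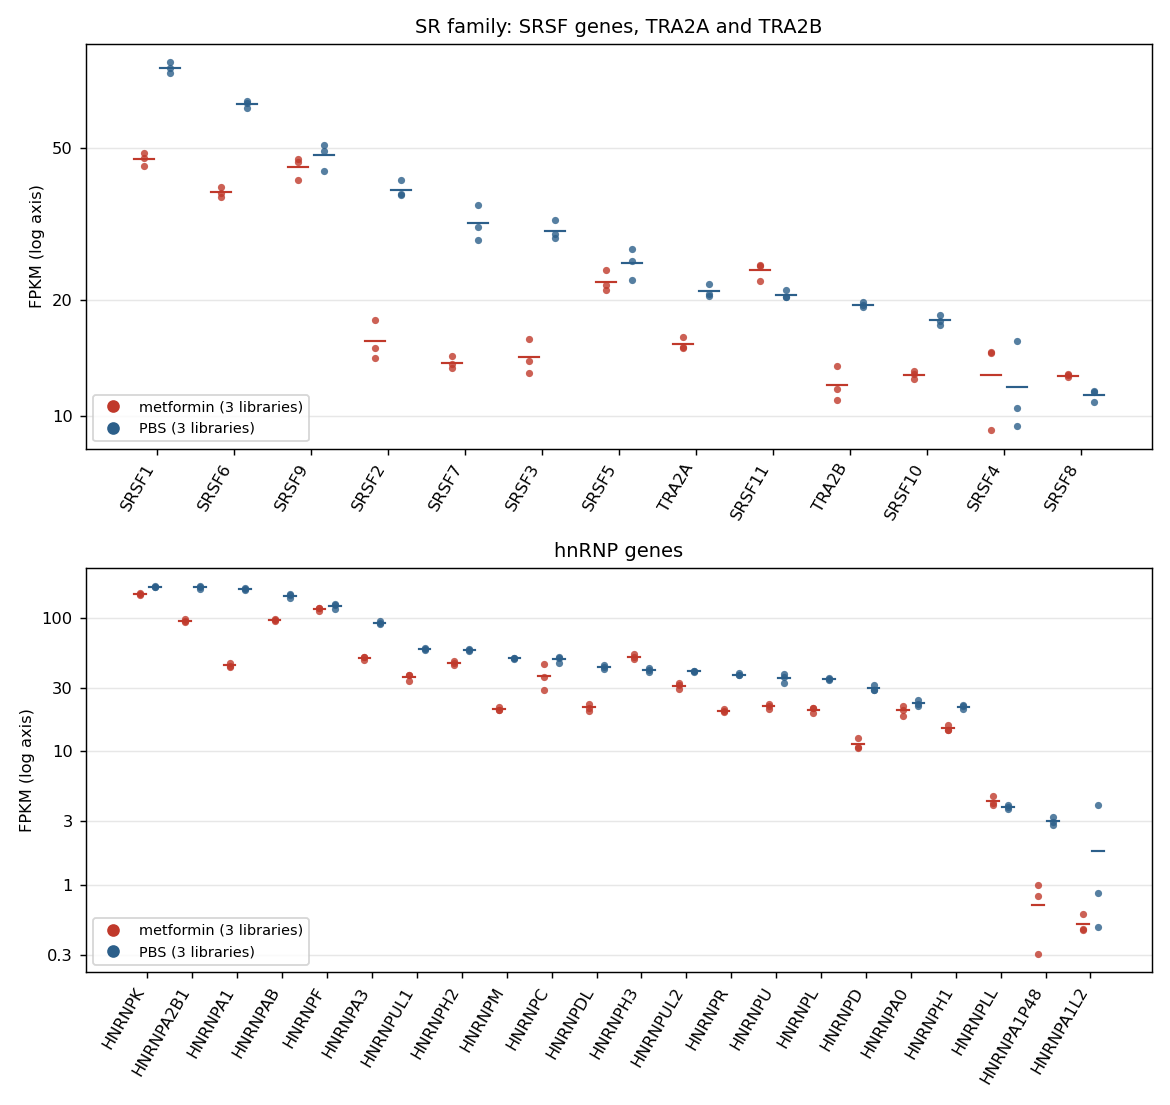
FPKM of each tested member (log axis), with metformin left of PBS, dots for the 3 libraries of a group and lines for their means. The groups are apart in 28 of the 35 genes, against 64.4% of all tested genes. HNRNPA1 has the widest gap among members above 10 FPKM, at 44.3 against 165 FPKM.

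Among the 13 tested SR genes, 8 fell, 2 rose and 3 were not called. The share called lower was 61.5%, against 25.2% of all tested genes and 35.8% of the 4382 tested genes averaging 10 FPKM or more. The median log2 change was -0.44, against 0.06 for all tested genes and -0.03 for those averaging 10 FPKM or more.

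SRSF2, which encodes the nuclear speckle protein SC35 (ENSG00000161547.16, chromosome 17, 76734115 to 76737374 in GRCh38), had 14.1, 17.8 and 15.0 FPKM with metformin and 41.1, 37.8 and 37.7 FPKM with PBS. Every metformin library lay below every PBS library, a fall of 2.49-fold (log2 change -1.27, SE 0.09, limma adjusted p = 5.72e-05). The antisense-strand neighbour MFSD11 shares 1106 exon bases with it and had 9.21 FPKM with metformin and 24.6 with PBS. Fragments from these bases cannot be told apart unless counting used strand, which is not given in the sources used here.

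SRSF7, an SR protein with a zinc knuckle (ENSG00000115875.18, chromosome 2, 38743599 to 38751494), had 13.6, 13.3 and 14.3 FPKM with metformin and 28.8, 35.5 and 31.1 FPKM with PBS. SRSF3, the smallest SR protein and an adaptor for mRNA export (ENSG00000112081.16, chromosome 6, 36594353 to 36605600), had 13.9, 15.9 and 12.9 FPKM with metformin and 29.8, 32.3 and 29.2 FPKM with PBS. Neither gene's groups overlapped, and the falls were 2.31-fold for SRSF7 and 2.14-fold for SRSF3 (log2 changes -1.15 and -1.05, SE 0.08 and 0.09, limma adjusted p = 5.97e-05 and 9.62e-05). Neither shares a 75-base word with any transcript of another annotated gene.

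SRSF1, the prototype SR protein and a known oncogene product (ENSG00000136450.12, chromosome 17, 58003360 to 58007346), had the highest mean of the SR genes in both groups, although SRSF9 was above it in metformin replicate 1. It had 44.8, 48.6 and 47.0 FPKM with metformin and 83.6, 78.6 and 80.9 FPKM with PBS, a fall of 1.73-fold (log2 change -0.78, SE 0.05, limma adjusted p = 3.83e-05). Of its 75-base words, 48.2% also belong to AC015813.2, an overlapping gene on the same strand that had 0.987 FPKM with metformin and 0.268 with PBS. AC015813.5, on the opposite strand, shares 440 exon bases with SRSF1 and had 19.4 FPKM with metformin and 30.8 with PBS. SRSF6, which encodes SRp55, had 38.1, 39.6 and 37.3 FPKM with metformin and 65.4, 66.3 and 63.7 FPKM with PBS, a fall of 1.70-fold (log2 change -0.75, SE 0.05, limma adjusted p = 3.22e-05). The metformin libraries of both genes lay together and far below the PBS libraries.

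Both human relatives of the Drosophila splicing regulator transformer-2 also fell. TRA2B had 10.99, 13.5 and 11.7 FPKM with metformin and 19.4, 19.2 and 19.8 FPKM with PBS (1.61-fold lower, log2 change -0.65, SE 0.08, limma adjusted p = 5.58e-04). TRA2A had 16.0, 15.1 and 15.0 FPKM with metformin and 20.6, 22.1 and 20.8 FPKM with PBS (1.38-fold lower, log2 change -0.44, SE 0.06, limma adjusted p = 7.82e-04). SRSF10, which encodes a splicing repressor when dephosphorylated, fell 1.39-fold to 12.8 ± 0.318 with metformin, against 17.8 ± 0.522 FPKM with PBS (limma adjusted p = 5.58e-04). In none of these 3 genes did the groups overlap.

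Of the other 5 tested SR genes, 3 were not called and 2 were called higher. SRSF9, which encodes SRp30c, had 46.9, 45.9 and 41.2 FPKM with metformin and 51.0, 49.0 and 43.4 FPKM with PBS, and the groups overlapped (log2 change -0.10, SE 0.08, limma adjusted p = 0.344). GATC, on the opposite strand, shares 1729 exon bases with SRSF9 and had 20.15 FPKM with metformin and 15.95 with PBS. As for SRSF2, fragments from these bases cannot be told apart unless counting used strand. SRSF5, which encodes SRp40, averaged 22.4 ± 1.46 with metformin and 25.04 ± 2.28 FPKM with PBS (limma adjusted p = 0.159). SRSF4, which encodes SRp75, had 14.6, 14.6 and 9.16 FPKM with metformin and 15.7, 10.5 and 9.39 with PBS, so that its libraries differed within a group more than the groups differed (limma adjusted p = 0.717).

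SRSF11 rose 1.16-fold, to 24.0 ± 1.28 FPKM with metformin, against 20.7 ± 0.459 with PBS (log2 change 0.20, limma adjusted p = 0.0230). SRSF8, an intron-poor relative of SRSF2, rose 1.12-fold, to 12.7 ± 0.0983 FPKM with metformin, against 11.3 ± 0.423 with PBS (log2 change 0.16, limma adjusted p = 0.0490). Both rises were small and lay close to the threshold: leaving out metformin replicate 1, metformin replicate 3, PBS replicate 1 or PBS replicate 2 ended both calls, and leaving out either other library ended that of SRSF8. SRSF11 had 24.6, 22.5 and 24.8 FPKM with metformin against 20.4, 20.4 and 21.2 with PBS, so its groups were apart all the same. With these differences the order within the family changed. SRSF11 rose to 8.41 ± 0.665% of the summed SR level with metformin, against 4.90 ± 0.239% with PBS, and SRSF2 fell to 5.47 ± 0.551%, against 9.21 ± 0.372%. The ratio of SRSF11 to SRSF3 was 1.70 ± 0.259 with metformin and 0.682 ± 0.0480 with PBS, so the more abundant of this pair differed between the groups. This pair and the pairs of single genes given below were not fixed in advance. Such a ratio restates the changes of its genes and is no further result.

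**Figure D2:**
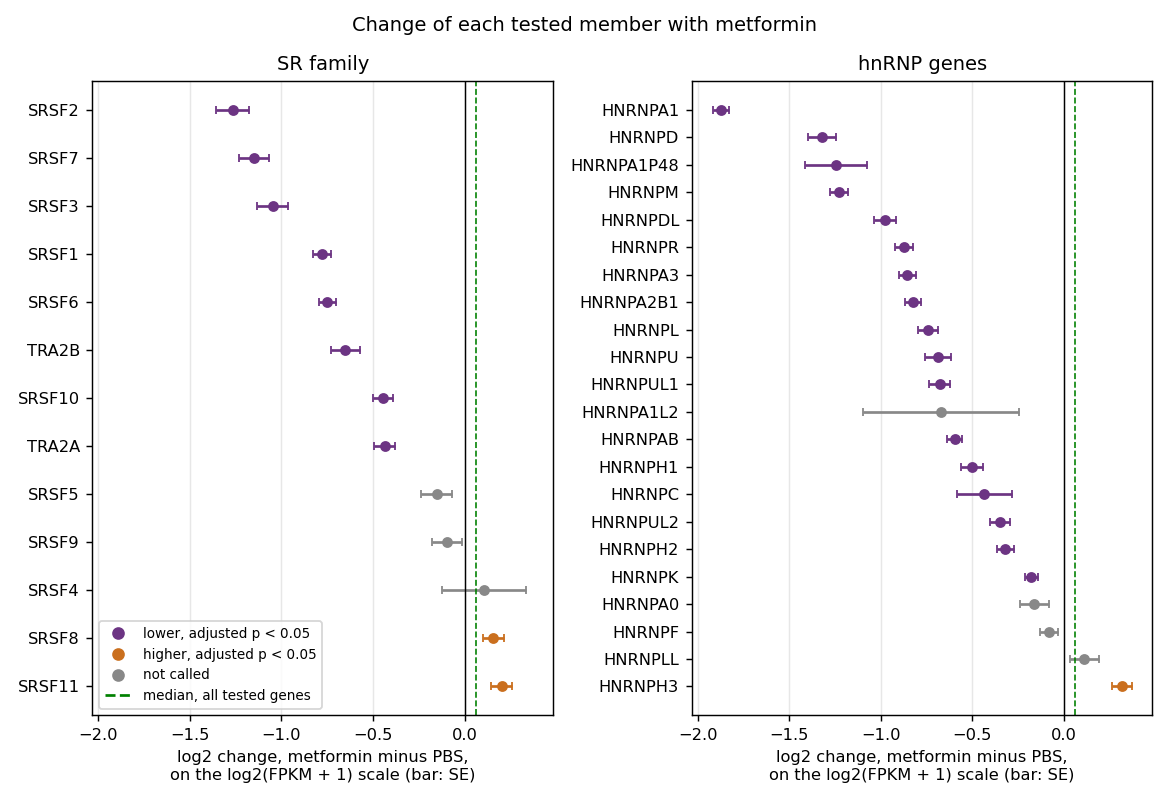
Change of each tested member in log2(FPKM + 1), metformin minus PBS, with its SE, coloured by its limma call. The changes run from -1.87 for HNRNPA1 to 0.32 for HNRNPH3, and the dashed line is the median of all tested genes, 0.06.

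Among the 22 tested hnRNP genes, 17 fell, 1 rose and 4 were not called. The 17 include HNRNPA1P48, which passed the level filter only through its PBS level. The share called lower was 77.3%, against 25.2% of all tested genes and 35.8% of those averaging 10 FPKM or more. The median log2 change was -0.68. Without HNRNPA1 and its copies HNRNPA1L2 and HNRNPA1P48, 15 of 19 fell and the median was -0.60.

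The A/B group, whose members carry a pair of RNA-recognition domains and a glycine-rich tail, held the largest fall on the log2 scale. HNRNPA1, a splicing silencer known to oppose SRSF1 in the choice of splice sites (ENSG00000135486.17, chromosome 12, 54280193 to 54287088), had 43.0, 46.0 and 43.8 FPKM with metformin and 164, 168 and 162 FPKM with PBS. It fell 3.72-fold (log2 change -1.87, SE 0.04, limma adjusted p = 1.60e-06), and its rank among the 41 members was 10 with metformin and 3 with PBS. Its share of the summed hnRNP level was 4.84 ± 0.184% with metformin and 11.8 ± 0.275% with PBS.

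HNRNPA1 has many processed pseudogenes, and 19.98% of its 75-base words occur in transcripts of other genes. This is a share of annotated sequence, not of fragments, and how far it makes the value uncertain is not known. The 74 listed pseudogenes named after it summed to 17.6 ± 1.26 FPKM with metformin and 32.7 ± 2.88 FPKM with PBS. HNRNPA1P48 had 0.992, 0.304 and 0.832 FPKM with metformin and 2.93, 2.83 and 3.23 FPKM with PBS, 4.23-fold lower (log2 change -1.25, SE 0.17, limma adjusted p = 9.24e-04). HNRNPA1P48 passed the level filter only through its PBS level, which favours a fall, so this p-value does not establish one. HNRNPA1L2 had 0.464, 0.460 and 0.600 FPKM with metformin and 0.487, 0.873 and 3.99 FPKM with PBS, and its groups overlapped (limma adjusted p = 0.219). Summed over HNRNPA1 and all these copies, the level was 63.1 ± 2.16 FPKM with metformin and 202 ± 4.10 FPKM with PBS, a ratio of 3.21. With the copies added, the metformin libraries still lay far below the PBS libraries.

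HNRNPA2B1, its close relative (ENSG00000122566.20, chromosome 7, 26173057 to 26201529), had 94.8, 93.9 and 98.2 FPKM with metformin and 165, 172 and 174 FPKM with PBS, a fall of 1.78-fold (log2 change -0.82, SE 0.04, limma adjusted p = 1.60e-05). CBX3, on the opposite strand, shares 368 exon bases with HNRNPA2B1 and had 26.7 FPKM with metformin and 46.4 with PBS. HNRNPA3 had 48.6, 51.1 and 51.0 FPKM with metformin and 89.5, 91.1 and 94.6 FPKM with PBS, a fall of 1.83-fold (log2 change -0.86, limma adjusted p = 1.87e-05). HNRNPAB had 98.7, 97.4 and 94.7 FPKM with metformin and 142, 149 and 150.1 FPKM with PBS, a fall of 1.52-fold (log2 change -0.60, limma adjusted p = 5.30e-05). HNRNPA1 and HNRNPA2B1 stood at a ratio of 0.463 ± 0.0234 with metformin and 0.969 ± 0.0319 with PBS, with no overlap between the libraries. HNRNPA0, encoded by a single exon, was at 20.4 ± 1.80 with metformin and 22.9 ± 1.14 FPKM with PBS and was not called (limma adjusted p = 0.119).

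HNRNPD, which encodes AUF1, a protein that binds AU-rich elements and regulates mRNA decay (ENSG00000138668.18, chromosome 4, 82352498 to 82374503), had 10.8, 12.6 and 10.7 FPKM with metformin and 29.1, 28.8 and 31.5 FPKM with PBS. It fell 2.63-fold (log2 change -1.32, SE 0.08, limma adjusted p = 2.72e-05). Its paralog and neighbour on the same chromosome, HNRNPDL (82422564 to 82430408), had 20.2, 22.8 and 21.1 FPKM with metformin and 41.6, 43.3 and 44.2 FPKM with PBS. HNRNPDL fell 2.01-fold (log2 change -0.98, SE 0.06, limma adjusted p = 3.23e-05). Both genes were far below PBS in every metformin library, and neither shares 75-base words with another gene.

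HNRNPM, a regulator of alternative splicing with several RNA-recognition domains (ENSG00000099783.11, chromosome 19, 8444767 to 8489114), had 21.5, 20.3 and 20.3 FPKM with metformin and 50.3, 50.1 and 49.3 FPKM with PBS. It fell 2.41-fold (log2 change -1.23, SE 0.05, limma adjusted p = 5.64e-06), and libraries of a group were close together. HNRNPR had 20.7, 20.2 and 19.6 FPKM with metformin and 37.4, 37.2 and 38.5 FPKM with PBS, a fall of 1.87-fold (log2 change -0.87, limma adjusted p = 2.19e-05). SYNCRIP, the paralog of HNRNPR also called hnRNP Q, was at 36.6 ± 0.844 FPKM with metformin and 54.6 ± 0.596 with PBS (log2 change -0.57, limma adjusted p = 7.95e-05) and was chosen for mention after its values were seen.

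HNRNPL, which binds CA repeats, had 21.0, 21.1 and 19.4 FPKM with metformin and 34.9, 35.7 and 34.4 FPKM with PBS, a fall of 1.71-fold (log2 change -0.74, limma adjusted p = 5.97e-05). Its paralog HNRNPLL was at a low level, 4.24 ± 0.338 FPKM with metformin and 3.84 ± 0.135 with PBS, and was not called (limma adjusted p = 0.261). The ratio of HNRNPL to HNRNPLL was therefore 4.87 ± 0.577 with metformin and 9.12 ± 0.208 with PBS, without overlap.

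HNRNPU, a nuclear scaffold protein, had 20.8, 21.8 and 22.7 FPKM with metformin and 35.9, 38.3 and 32.8 FPKM with PBS, a fall of 1.64-fold (log2 change -0.69, limma adjusted p = 2.86e-04). COX20, on the opposite strand, shares 3502 exon bases with HNRNPU and had 11.4 FPKM with metformin and 10.7 with PBS. HNRNPUL1 had 33.8, 37.4 and 37.6 FPKM with metformin and 58.2, 57.5 and 59.9 FPKM with PBS, a fall of 1.62-fold (log2 change -0.68, limma adjusted p = 1.12e-04). HNRNPUL2 fell 1.28-fold, to 31.1 ± 1.69 FPKM with metformin against 39.8 ± 0.645 with PBS (limma adjusted p = 0.00188). The 3 genes of this U group thus all fell, and by the least in HNRNPUL2, which shares 42.8% of its 75-base words with HNRNPUL2-BSCL2.

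The F/H group, which binds runs of G, moved in several directions. HNRNPH1 had 14.5, 14.6 and 15.8 FPKM with metformin and 20.6, 21.998 and 22.3 FPKM with PBS, a fall of 1.45-fold (log2 change -0.50, limma adjusted p = 5.19e-04). HNRNPH2 fell 1.25-fold, to 46.0 ± 1.46 FPKM with metformin against 57.7 ± 0.789 with PBS (limma adjusted p = 0.00113). Of its 75-base words, 13.49% also occur in RPL36A-HNRNPH2, on the same strand, which had 9.6 FPKM with metformin and 8.2 with PBS. HNRNPF was not called, at 117 ± 4.10 FPKM with metformin and 124 ± 5.15 with PBS (limma adjusted p = 0.209).

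HNRNPH3 (ENSG00000096746.17, chromosome 10, 68331174 to 68343191) was the one hnRNP called higher. Its libraries had 53.3, 49.0 and 51.3 FPKM with metformin and 42.5, 40.7 and 39.6 FPKM with PBS, a rise of 1.25-fold (log2 change 0.32, SE 0.05, limma adjusted p = 0.00249). Its rank among all members was 5 with metformin and 15 with PBS. The ratio of HNRNPH3 to HNRNPH1 was 3.43 ± 0.213 with metformin and 1.90 ± 0.149 with PBS, and every metformin library lay above every PBS library. RUFY2, on the opposite strand, shares 115 exon bases with HNRNPH3 and had 4.32 FPKM with metformin and 3.21 with PBS.

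HNRNPK, a poly(C)-binding protein with KH domains, had the highest mean of all members in both groups, with 152, 149 and 154 FPKM with metformin and 173, 172 and 171 FPKM with PBS. In PBS replicates 2 and 3 HNRNPA2B1 was slightly above it. Its fall of 1.13-fold was small but larger than the spread between libraries (log2 change -0.18, SE 0.04, limma adjusted p = 0.00491). Quantile normalization brought that change to -0.0019 (adjusted p = 0.977), so its size and its call depend on the scaling between libraries. HNRNPC, which packages transcripts as a tetramer and binds runs of U, had 28.8, 35.9 and 45.2 FPKM with metformin and 45.9, 51.2 and 50.3 FPKM with PBS. The groups were barely apart, and the call (1.34-fold lower, log2 change -0.43, SE 0.15, limma adjusted p = 0.0457) was lost without metformin replicate 1 (adjusted p = 0.0866), metformin replicate 2 (0.1), PBS replicate 1 (0.0680), PBS replicate 2 (0.116) or PBS replicate 3 (0.106).

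**Figure D3:**
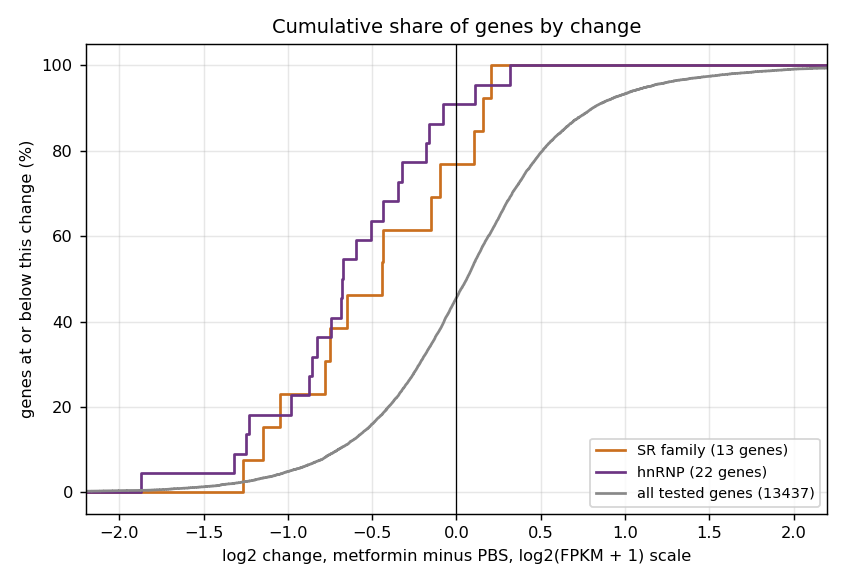
Cumulative share of genes (vertical axis, %) at or below each log2 change (horizontal axis) for the SR family, the hnRNPs and all tested genes. At the median both family curves lie left of the curve of all genes, with -0.68 for hnRNPs and -0.44 for the SR family against 0.06. The curve of all genes starts further left, since some other genes fell more than any member.

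Set side by side, the families differed little in their totals. Summed SR levels were 285, 294 and 278 FPKM with metformin and 429, 428 and 409.7 FPKM with PBS. Summed hnRNP levels were 904, 910.2 and 929 FPKM with metformin and 1384, 1403 and 1416 FPKM with PBS. Each total was lower in every metformin library than in any PBS library, by 1.48-fold on average for SR and 1.53-fold for hnRNP genes.

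The ratio of the SR total to the hnRNP total was 0.315, 0.323 and 0.299 with metformin and 0.310, 0.305 and 0.289 with PBS. These ranges overlapped, and the mean ratios of 0.312 ± 0.0120 and 0.302 ± 0.0109 differed by about the spread between libraries. Without HNRNPA1 the ratio was 0.328 ± 0.0132 with metformin and 0.342 ± 0.0133 with PBS, so the sign of the small difference rested on that gene. All members together made up 0.594 ± 0.00668% of the summed FPKM with metformin and 0.885 ± 0.00810% with PBS. No test was made of these sums, since the members were chosen with earlier results of these data known.

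**Figure D4:**
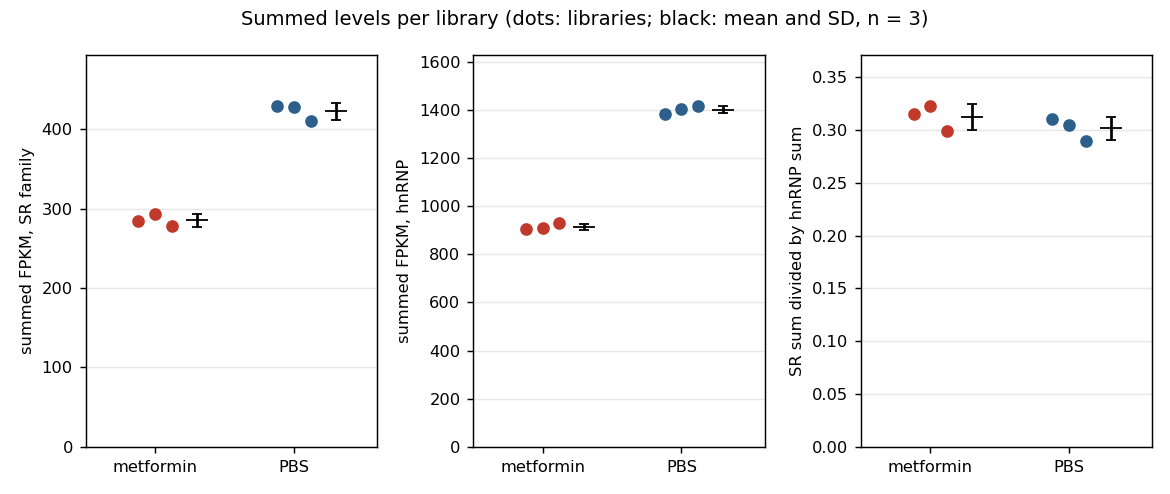
Summed FPKM of the SR family and of the hnRNPs, and the ratio of the sums, in each library, with mean and SD (n = 3) in black. Both totals are lower with metformin (285 against 422 for SR, 914 against 1401 for hnRNP), while the ratios overlap at 0.312 and 0.302.

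All 14 SR genes have at least 1 transcript that GENCODE 29 types as a target of nonsense-mediated decay, as have 14 of the 27 hnRNP genes. Transcripts with a retained intron are annotated for 11 SR genes and 14 hnRNP genes. A value per gene does not separate such transcripts from those that code for protein, so a lower value does not say which of them was lower. Of the 35 tested members, 17 share no 75-base word with another gene and 8 share at least 5% of theirs, while 11 share exon bases on either strand with another gene above the filter.

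Genes that work with these families were read from lists of textbook members. Of 14 tested kinases, phosphatases and importers of SR and hnRNP proteins, 3 were higher and 4 lower, and the shares lay near the 31% and 25.2% of all tested genes. TNPO1, the importer of hnRNP A1, rose 1.64-fold, to 30.7 ± 1.23 FPKM with metformin against 18.7 ± 1.19 with PBS (log2 change 0.69, limma adjusted p = 1.80e-04). CLK3, a kinase of SR proteins, rose 1.31-fold to 2.85 ± 0.130 FPKM, against 2.17 ± 0.143. The CLK3 call was lost with no filter (adjusted p = 0.0515), quantile normalization (log2 change 0.14, adjusted p = 0.181) or the replicate block (adjusted p = 0.0666), and without metformin replicate 1, metformin replicate 3, PBS replicate 1 or PBS replicate 3 (adjusted p 0.0630 to 0.0729). PPP1CA and PPP1CC, catalytic subunits of protein phosphatase 1, fell 1.75-fold and 1.24-fold, and the PPP1CC call was lost without metformin replicate 1, metformin replicate 2, PBS replicate 1 or PBS replicate 2 (adjusted p 0.0536 to 0.0673). The main cytoplasmic SR kinase gene SRPK1, chosen for mention after its values were seen, was at 18.8 ± 0.911 FPKM with metformin and 21.8 ± 0.832 with PBS (log2 change -0.20, limma adjusted p = 0.0258).

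SR-related proteins, which carry arginine-serine stretches without being classical SR proteins, gave 2 higher, 4 lower and 15 without a call among 21, with a median log2 change of -0.07. PNISR rose 1.52-fold and SCAF1 1.22-fold, and leaving out both libraries numbered 3 ended the calls of SCAF1 (adjusted p = 0.0790) and CLK3 (adjusted p = 0.164). THRAP3 fell 1.97-fold, to 29.6 ± 2.04 FPKM with metformin against 58.2 ± 2.81 with PBS, and its paralog BCLAF1 fell 1.70-fold. Neither share was tested against all tested genes, of which 31% were called higher and 25.2% lower. The speckle scaffold gene SON was at 21.7 ± 1.00 with metformin and 22.2 ± 2.36 FPKM with PBS (limma adjusted p = 0.843) and was chosen for mention after its values were seen.

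Among other regulators of splicing, 18 of 32 tested genes were lower and 4 higher, with a median of -0.20, MATR3 being counted under both of its identifiers. Of all tested genes 25.2% were called lower and 31% higher, and of those averaging 10 FPKM or more 35.8% and 31.4%. RBM3, a cold-inducible RNA-binding protein, fell 3.04-fold, to 9.65 ± 0.718 FPKM with metformin against 29.3 ± 0.857 with PBS (log2 change -1.51, limma adjusted p = 8.82e-06). MBNL2, a muscleblind splicing factor, rose 2.27-fold to 28.0 ± 6.84 FPKM, against 12.3 ± 3.08, and RBFOX2, which binds GCAUG in introns, rose 1.90-fold to 20.2 ± 1.44, against 10.7 ± 0.163.

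Of 24 core snRNP and branch-site factors, 17 were called lower and SF3B6 alone was called higher, and the median log2 change was -0.31. The shares called lower were 25.2% of all tested genes and 35.8% of those averaging 10 FPKM or more, and those called higher 31% and 31.4%. SNRPD1, a subunit of the Sm ring, fell 1.72-fold, to 10.7 ± 0.492 FPKM with metformin against 18.4 ± 0.198 with PBS. U2AF2, which binds the polypyrimidine tract and is recruited by SR proteins, fell 1.67-fold, to 40.7 ± 2.11 FPKM against 68.0 ± 0.408 (log2 change -0.73, limma adjusted p = 5.52e-05). SF3B6 rose 1.16-fold to 77.2 ± 3.42 FPKM, against 66.6 ± 0.906 (limma adjusted p = 0.00947).

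**Figure D5:**
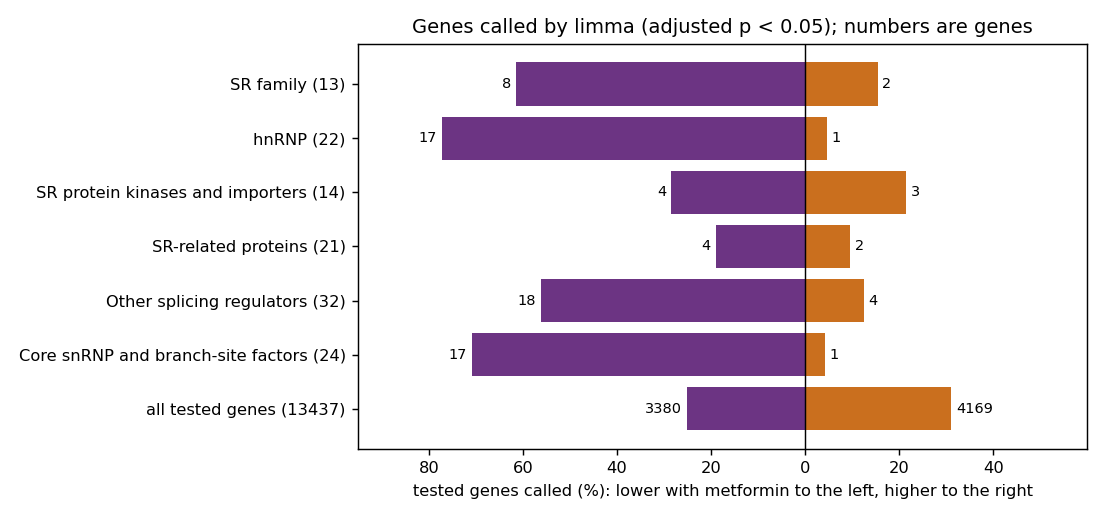
Share of tested genes called by limma in each family and list (%), lower with metformin to the left and higher to the right, with gene counts at the bars. The lower share is 77.3% for hnRNPs and 61.5% for the SR family, against 25.2% of all tested genes. Of tested genes averaging 10 FPKM or more, not drawn here, it is 35.8%.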

How the data were processed

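Messenger RNA of CAL27 cells was sequenced in 3 metformin and 3 PBS libraries, prepared with a VAHTS mRNA-seq kit per the labels' protocols. Per the file headers, the deposited values are FPKM for every gene, and the genome build was GRCh38, per the submitters' processing notes. For the aligner, the quantification tool, the strand setting and the annotation release, the answer is not given in the sources used here. FPKM divides by all mapped fragments, so a change in abundant genes moves the rest.

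Identifiers were matched without version to GENCODE release 29, which named 57980 of 58243, and 35 of the 41 members matched in version too. The members and the gene lists were chosen with earlier results of these data known. The 13437 genes averaging 1 FPKM or more across all 6 libraries were tested two-sided in R 4.3.3 with limma 3.58.1 on log2(FPKM + 1) values (intensity trend, group as the only term), adjusted by Benjamini-Hochberg at 0.05. With 3 libraries a group, an exact permutation test of a single gene cannot go below p = 0.1, so none was used. Depth was estimated from the spacing of low values in genes with a single transcript and its exonic length. Exon overlaps were computed with BEDTools 2.31.1 and words of 75 bases from GENCODE transcripts with Python 3.11.15, pandas 2.3.3 and NumPy 2.4.6.

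Libraries correlated at Pearson's r of 0.974 to 0.979 across genes within a group and 0.881 to 0.888 between groups, and no pair shared more than 1 identical value above 0. Values of every library are given for members that passed with a log2 change of at least 0.5 in either direction, for the 3 most abundant of each family and for TRA2A and TRA2B. From each other list, up to 2 rises and 2 falls that passed are named, except 1 gene that is not reported here. The alternatives were other pseudocounts, level filters, scalings and variance models, a replicate block, protein-coding genes alone, leaving out each library, and, added after the data were seen, leaving out both libraries numbered 3.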

Additional observations from a re-analysis of the deposited data

How the results depend on the processing

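Of the 35 tested members, 28 kept their direction and their side of the threshold under every alternative fit in which they were tested, among them HNRNPA1 (log2 change -1.91 to -1.74), SRSF2, SRSF3, SRSF7, HNRNPD, HNRNPM and HNRNPH3. The counts of members called lower stayed within 1.5 times. The count of SR members called higher was 2 and fell to 1 with a filter of 0.1 FPKM, with median-of-ratios scaling, with quantile normalization, without the intensity trend and with the replicate block, and to 0 without both libraries numbered 3, for which the cause was not tested. Leaving out 1 library gave 0 to 1. The HNRNPC call also ended with a filter of 0.1 FPKM, no filter, a fixed sum, quantile normalization or no trend (adjusted p 0.0573 to 0.106). SRSF5 passed only without both libraries numbered 3 (-0.2701, adjusted p = 0.0412). For all tested genes called, higher numbered 2401 with a filter of 5 FPKM, since fewer genes were tested. Scalings put the median log2 change of all tested genes between -0.0072 and 0.098, against 0.0613. Quantile normalization moved the hnRNP median to -0.61 and turned HNRNPF to 0.053, with no call either way. SRSF4 ranged over -0.0312 (without PBS replicate 3) to 0.313 when 1 library was left out, with no call. The SR to hnRNP ratio of sums, metformin over PBS, was 1.04 and went to 0.961 without HNRNPA1. Deviations of same-numbered libraries from their group means correlated at -0.000355, 0.0304 and -0.0105, and those of differently numbered libraries at -0.0467 to 0.0444. Such correlations do not tell whether same-numbered libraries were handled together. Among members the replicate block ended the call of SRSF8 alone (adjusted p = 0.102). Depth is known only by estimate, which limits low genes such as HNRNPA1L2.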
